A study of Mus musculus with 6 samples.

Results

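The regions described here are places in the macrophage genome where C/EBPβ was detected without PU.1 and where histone H3 was acetylated at lysine 9 (H3K9Ace) in macrophages but not in adipocytes. They were chosen by measured values. A member is an autosomal region of the macrophage C/EBPβ list that overlaps, by at least 1 bp, a region of the macrophage H3K9Ace list, and that overlaps no macrophage PU.1 region and no adipocyte H3K9Ace region. There were 1695 members among 24024 autosomal C/EBPβ regions (7.06%). They made up 15.2% of the 11168 C/EBPβ regions without PU.1, and 34.2% of the 4960 such regions that were acetylated in macrophages. Below they are called macrophage-only C/EBPβ-alone regions.

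C/EBPβ is a basic leucine zipper transcription factor that acts in macrophage activation and early in fat cell differentiation. PU.1, of the ETS family, is a lineage factor of blood cells that opens macrophage enhancers. H3K9Ace marks active promoters and enhancers. PPARγ is a nuclear receptor switched on by ligands; fat cells need it to form, and macrophages use it too.

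The study mapped these proteins by ChIP-seq, which sequences the DNA recovered with an antibody. The macrophages were cells elicited by thioglycollate, an irritant that draws inflammatory cells into the peritoneum, in male C57BL/6 mice. They were collected 3 days after 1 ml of 3% thioglycollate, held for 24 h to adhere, and used for PPARγ, PU.1, C/EBPβ and H3K9Ace. For PPARγ and H3K9Ace, adipocytes were also used, obtained by differentiating the mouse preadipocyte line 3T3-L1. Cells of at least 4 animals were pooled for each macrophage run, so variation between animals cannot be seen, and the adipocytes are 1 established line. The age of the mice is not given in the sources used here. Each of the 6 libraries stands alone for its target, with no replicate. C/EBPβ and PU.1 in adipocytes were not analysed here, so "macrophage-only" refers to acetylation alone.

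The macrophage lists held 24421 C/EBPβ, 46356 PU.1 and 37263 H3K9Ace regions, and the adipocyte H3K9Ace list held 51257. PPARγ had 1961 regions in the final macrophage list and 2634 in the final adipocyte list. A longer macrophage PPARγ list, which reaches down to a fold of 2.15 against 5 in the final list, held 18470 regions. An adipocyte list that combines 3 datasets held 12430, and its regions were wide, with a median of 899 bp against 260 bp in the final adipocyte list. Read totals are not in these files, so the depth of each library is unknown. Intervals below are 95% intervals for counting error only. They treat regions as independent, although neighbours share chromatin, and no p-value was computed over regions.

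For comparison, 3 other classes of autosomal C/EBPβ regions were used. The first was the 3265 C/EBPβ-alone regions acetylated in both cell types. The second was the 6208 C/EBPβ-alone regions not acetylated in macrophages, whether or not they were acetylated in adipocytes. The third was the 3956 C/EBPβ regions that overlapped PU.1 and were acetylated only in macrophages, called PU.1-joined regions below. Positions are on mouse build mm8, as the authors' files give them. No gene annotation of that build was used here, so regions carry no gene names.

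The macrophage-only C/EBPβ-alone regions lacked PU.1 by overlap, but PU.1 was usually near. The gap from the edge of a member to the edge of the nearest PU.1 region had a median of 1530 bp (interval 1370 to 1692, quartiles 429 and 5296 bp). A PU.1 region lay within 0.5 kb of 469 members (27.7%), within 1 kb of 703 (41.5%) and within 10 kb of 1472 (86.8%). Only 32 members lay more than 50 kb from any PU.1 region. The word "alone" therefore describes the region itself and not its neighbourhood.

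Among C/EBPβ-alone regions, the gap to PU.1 was shorter for members than for the other classes. Regions acetylated in both cell types had a median gap of 1989 bp (1825 to 2125), and regions not acetylated in macrophages one of 5098 bp (4847 to 5344). The share with PU.1 within 1 kb was 37.1% (35.4 to 38.7) where both cell types were acetylated and 18.3% (17.3 to 19.3) where macrophages were not, against 41.5% (39.1 to 43.8) of members. These gaps come from the list that the choice of members used, so they describe the classes and test nothing. In the plot of gaps to PU.1 the 3 curves keep the same order from about 0.1 kb to 50 kb.

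**Figure D1:**
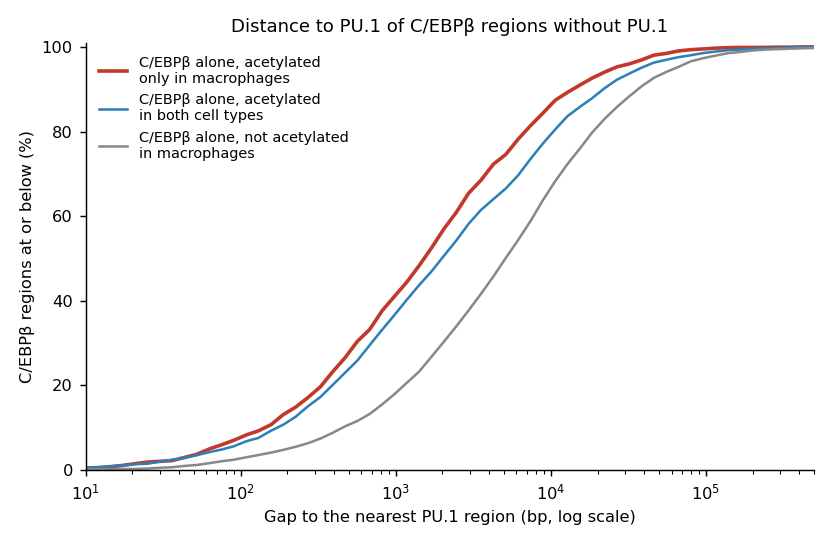
Cumulative share of C/EBPβ regions without PU.1 (y axis, percent) by gap to the nearest PU.1 region (x axis, bp, log scale). The curve of the 1695 members passes 41.5% at 1 kb and 86.8% at 10 kb, and the curve of the 6208 regions not acetylated in macrophages passes 18.3% and 66.7%.

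The extremes show the range. Of the members, 3 touched a PU.1 region end to end with no shared base. They were on chromosome 3 (27934380 to 27934631) and chromosome 7 (83535111 to 83535308, and 135493120 to 135493511). The furthest member, on chromosome 4 at 105201458 to 105201691, lay 397 kb from PU.1, although another C/EBPβ region was 2410 bp away. The next, on chromosome 14 at 118142554 to 118142973, was 282.0 kb from PU.1 and 567.6 kb from any other C/EBPβ region, which makes it isolated by both measures. The third, on chromosome 4 at 93161047 to 93161393, was 147.9 kb from PU.1 in an acetylated region of 600 bp.

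A few regions sat at the border of the rule. The 3 smallest overlaps with macrophage H3K9Ace among members were 2, 3 and 3 bp, and 14 members had an overlap of at most 10 bp. The 3 smallest overlaps with PU.1 that kept a region out were 1, 2 and 4 bp, and 13 regions were left out by at most 10 bp of PU.1. The 3 smallest overlaps with adipocyte H3K9Ace that kept a region out were 3, 6 and 6 bp, and 7 regions were left out by at most 10 bp of it.

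The 1695 members lay in 1610 macrophage acetylated regions. Of these, 1533 held 1 member, 70 held 2, 6 held 3 and 1 held 4. PU.1 was present elsewhere in the same acetylated region for 651 members (38.4%, 36.1 to 40.8), and another C/EBPβ region for 524 (30.9%). By this measure members were below C/EBPβ-alone regions acetylated in both cell types, where PU.1 shared the acetylated region for 43.7% (42.0 to 45.4). For 237 members (14.0%) the macrophage acetylated region overlapped an adipocyte one at some other point, by at least 1 bp. The strictest description, an acetylated region with neither PU.1 nor adipocyte acetylation anywhere in it, held for 942 members (55.6%, 53.2 to 57.9).

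Members with PU.1 in their acetylated region sat in wider domains, with a median of 2100 bp against 1050 bp for the other 1044 members. The C/EBPβ regions themselves had nearly the same median width, 271 and 270 bp. Domain width moved with the presence of PU.1, and its part in the share was not tested. Of all 36757 autosomal macrophage acetylated regions, 37.9% held PU.1, close to the 38.2% (35.9 to 40.6) of the 1610 that held members.

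The acetylated regions that held members had a median width of 1200 bp (1150 to 1250) over members, against 1050 bp over the whole macrophage H3K9Ace list. The medians were 1300 bp (1300 to 1350) for PU.1-joined regions and 2250 bp (2200 to 2300) where both cell types were acetylated. Members also lay nearer to the border of the domain. Their centres had a median distance to it of 299 bp, against 340.2 bp for PU.1-joined regions and 668.5 bp for regions acetylated in both. The median distance from the centre of the domain was alike for members and PU.1-joined regions, 328.5 and 326 bp, and was 413 bp for regions acetylated in both. The part of domain width in these distances was not tested. The whole C/EBPβ region was inside the acetylated region for 72.0% of members (69.8 to 74.1), 72.8% of PU.1-joined regions (71.4 to 74.2) and 90.0% of regions acetylated in both (88.9 to 90.9). The centre of the C/EBPβ region fell in the inner 50% of the domain for 47.1% of members (44.7 to 49.5), 52.7% of PU.1-joined regions and 61.8% of regions acetylated in both. These widths and positions come from an H3K9Ace list that the choice of members used, and are a description.

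The domain with the most members was on chromosome 9 at 20693700 to 20697150. It held 5 C/EBPβ regions, 4 of them members, together with 1 PU.1 region and an overlap with adipocyte acetylation, and its members lay 408 to 2126 bp from PU.1. Of the 6 domains with 3 members, the first 2 in genome order are given. One, on chromosome 2 at 166402700 to 166406200, held 3 members and 2 PU.1 regions. The other, on chromosome 2 at 172860900 to 172863050, held 3 members and no PU.1. Its nearest PU.1 region was 40521 bp from the closest member, although the members lay as little as 29 bp from each other. None of these 10 members overlapped a macrophage PPARγ region of either list.

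Many members had another C/EBPβ region nearby, as did many regions of the other classes acetylated in macrophages. The nearest other C/EBPβ region of any class lay at a median gap of 2694 bp (2410 to 3027), and 537 members (31.7%) had one within 1 kb. The median was 2706 bp (2520 to 2888) for PU.1-joined regions, 3407 bp (3102 to 3804) for regions acetylated in both cell types and 9388 bp (8895 to 9966) for regions not acetylated in macrophages. Over all autosomal C/EBPβ regions the median was 4918.5 bp. For the 1226 members with no PU.1 within 500 bp it was 3803 bp. The intervals of all members and PU.1-joined regions overlap, but the upper quartile was 10793 bp for members and 8622 bp for PU.1-joined regions. A C/EBPβ neighbour lay within 10 kb of 73.6% of members (71.5 to 75.7) and 77.6% of PU.1-joined regions (76.3 to 78.9). The share of regions with a C/EBPβ neighbour within 1 kb was 30.3% for PU.1-joined regions, 31.6% for regions acetylated in both and 12.2% for regions not acetylated in macrophages.

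The neighbour was most often a C/EBPβ region with PU.1. It overlapped PU.1 for 1027 members (60.6%, 58.2 to 62.9), against 48.6% (46.9 to 50.3) of regions acetylated in both cell types and 50.1% (48.8 to 51.3) of regions not acetylated in macrophages. PU.1-joined regions were as high as members, with 63.1% (61.6 to 64.6). Of all autosomal C/EBPβ regions, 53.5% overlapped PU.1. The neighbour was another member for 235 members (13.9%). The nearest other member was further off than the nearest C/EBPβ region of any class, at a median gap of 86549 bp, and 363 members (21.4%) had another member within 10 kb. Spacing within the other classes was not computed.

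**Figure D2:**
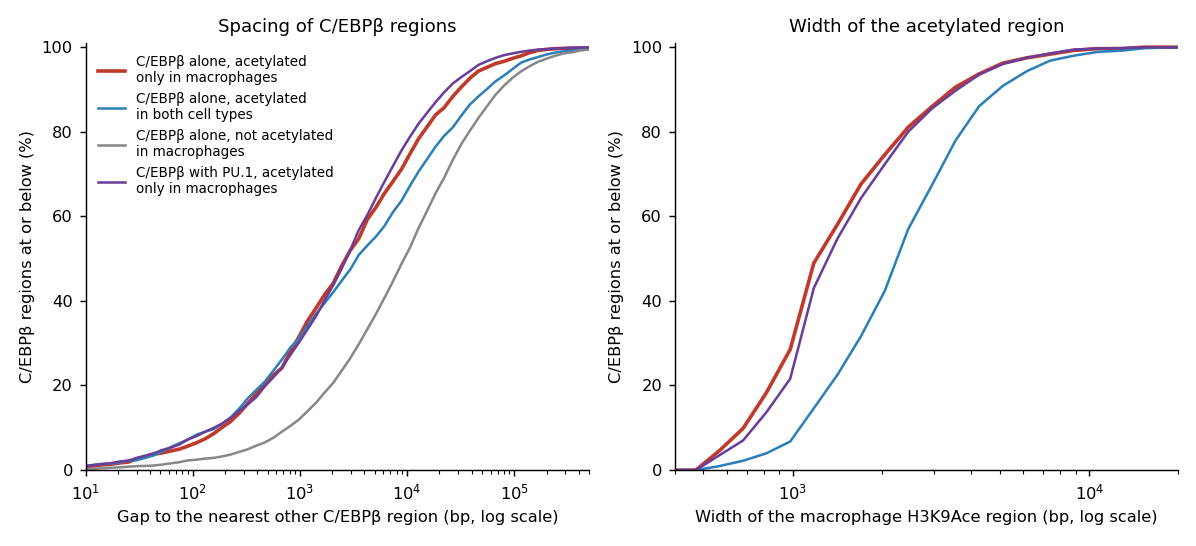
Cumulative share of C/EBPβ regions (y axes, percent) by gap to the nearest other C/EBPβ region (left, bp, log scale) and by width of the macrophage H3K9Ace region that holds them (right, bp, log scale). By their medians, members lie nearest to the PU.1-joined regions in both panels. The medians are 2694 and 2706 bp for the gap and, with members shifted to narrower domains, 1200 and 1300 bp for the width. Regions acetylated in both cell types lie in domains with a median of 2250 bp. At a gap of 1 kb, members (31.7%), PU.1-joined regions (30.3%) and regions acetylated in both (31.6%) lie close together.

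The strength of C/EBPβ binding was not analysed here, since the list used gives positions alone, and the width of the regions is the measure at hand. Members had a median width of 270 bp (263 to 274, quartiles 215 and 341 bp). Regions acetylated in both cell types had 268 bp (264 to 272), regions not acetylated in macrophages 227 bp (224 to 229) and PU.1-joined regions 338 bp (333 to 342). By median, members were about as wide as C/EBPβ-alone regions acetylated in both cell types, and narrower than those joined by PU.1. The classes were set by overlaps of at least 1 bp, which a wider region meets more readily. These widths therefore describe the classes and test nothing. The widest member, of 1244 bp, was on chromosome 6 at 48965168 to 48966412. It was followed by one of 902 bp on chromosome 2 (166420894 to 166421796) and one of 793 bp on chromosome 10 (44215545 to 44216338).

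PPARγ was not used to choose the members. In macrophages its final list overlapped few C/EBPβ regions as a whole, and few members. The final macrophage PPARγ list overlapped 64 of 1695 members (3.78%, 2.97 to 4.79), against 5.00% of all autosomal C/EBPβ regions. The share was 9.05% (8.20 to 9.98) in PU.1-joined regions, and the difference of members minus PU.1-joined regions was -5.27 percentage points (-6.51 to -3.94). Members did not differ detectably from regions acetylated in both cell types, at 3.19%, with a difference of 0.59 points (-0.45 to 1.75). They were above regions not acetylated in macrophages, at 2.08%, by 1.70 points (0.80 to 2.77). Counting only PPARγ regions with a fold of at least 7, this last difference was 0.30 points (-0.22 to 0.99).

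The longer macrophage PPARγ list gave the same order with larger shares. It overlapped 310 members (18.3%, 16.5 to 20.2), against 19.6% of all autosomal C/EBPβ regions, which lies within that interval. The share was 33.7% in PU.1-joined regions, 14.7% where both cell types were acetylated and 8.17% where macrophages were not. Members minus PU.1-joined regions gave -15.4 points (-17.7 to -13.0). They were 3.62 points (1.45 to 5.86) above regions acetylated in both and 10.1 points (8.22 to 12.1) above regions not acetylated in macrophages.

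In adipocytes PPARγ was nearly absent from the members. The choice of members excluded regions with adipocyte acetylation, while the class acetylated in both cell types required it. The adipocyte shares may therefore not be independent of the choice, and are a description. The final adipocyte PPARγ list overlapped 5 members (0.295%, 0.126 to 0.689), against 1.58% of all autosomal C/EBPβ regions. PU.1-joined regions, which also lack adipocyte acetylation, had 0.228%, and the difference from members of 0.07 points (-0.20 to 0.48) was not detectable at this number of regions. C/EBPβ-alone regions acetylated in both cell types had 2.79%, and members minus these regions gave -2.49 points (-3.14 to -1.85). The combined adipocyte list overlapped 46 members (2.71%, 2.04 to 3.60), against 7.86% of all autosomal C/EBPβ regions. It gave 15.3% in regions acetylated in both, 7.35% in regions not acetylated in macrophages and 1.97% in PU.1-joined regions. Regions not acetylated in macrophages were taken without regard to adipocyte acetylation, so they differ from members in that as well.

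**Figure D3:**
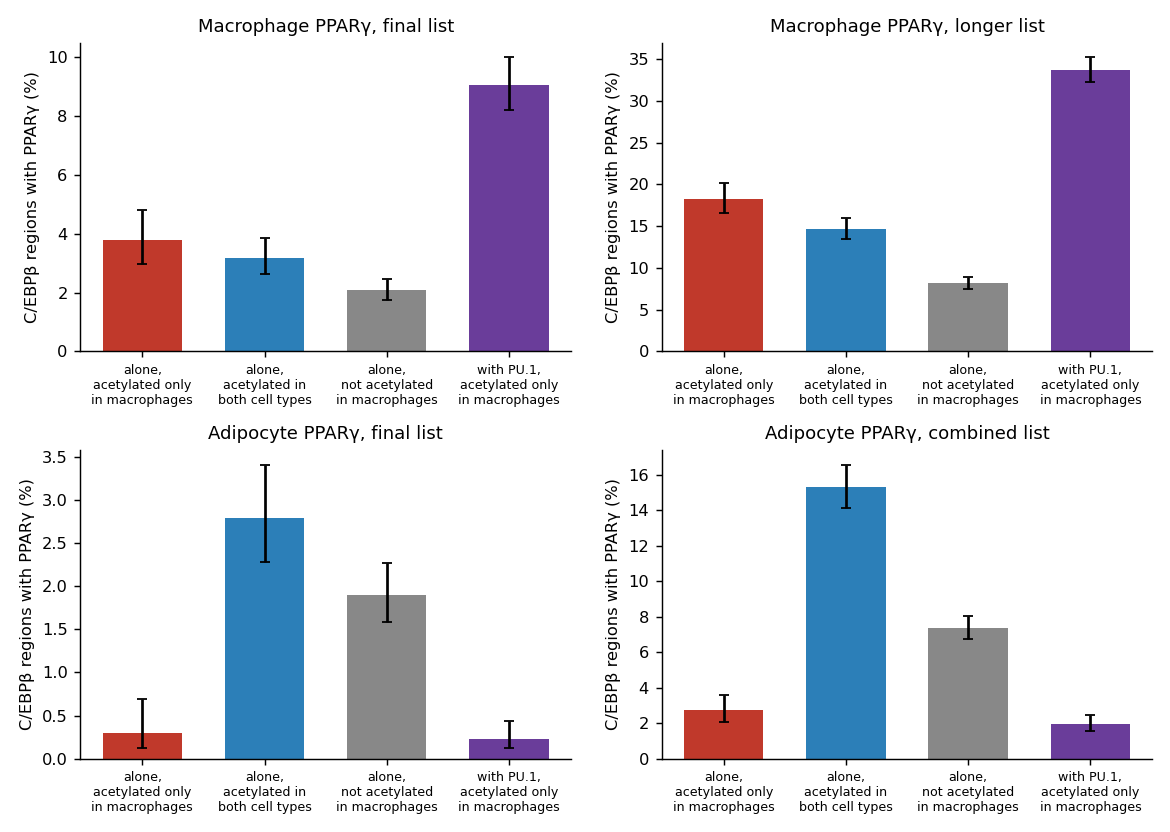
Share of C/EBPβ regions that overlap a PPARγ region (y axes, percent, each panel with its own scale) in the 4 classes, for the 4 PPARγ lists, with 95% Wilson intervals as error bars. Members (red) stand at 3.78% and 18.3% in the macrophage lists, below the PU.1-joined regions (purple, 9.05% and 33.7%), and at 0.295% and 2.71% in the adipocyte lists, below the regions acetylated in both cell types (blue, 2.79% and 15.3%).

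The PPARγ share rose with the width of the C/EBPβ region, and a wider region meets a 1 bp overlap more readily. The classes were therefore also compared within quartiles of width, bounded at 215, 275 and 362 bp. Among members, the final macrophage list overlapped 1.39% of the narrowest quartile, 2.98% of the next, 3.84% of the third and 7.71% of the widest. In the longer list the shares were 7.64%, 14.5%, 20.8% and 33.4%. Members stayed below PU.1-joined regions in each quartile. In the final list the differences were -3.06, -1.68, -3.43 and -5.63 points, of which the second had an interval that included 0 (-3.85 to 0.69). In the longer list they were -8.29, -7.54, -9.16 and -12.5 points, and all 4 intervals lay below 0.

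Against regions not acetylated in macrophages, the width quartiles left less of the difference in the final list. The values were -0.30, 1.72, 1.04 and 2.52 points, and the interval lay above 0 in the second quartile alone (0.37 to 3.72). In the longer list members were higher in each quartile, by 2.34 (0.01 to 5.34), 8.07, 8.30 and 14.5 points. Against regions acetylated in both cell types, the longer list gave 0.04 (-2.88 to 3.34), 4.39, 4.50 (0.05 to 9.19) and 6.73 points, so no difference was detectable in the narrowest quartile.

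**Figure D4:**
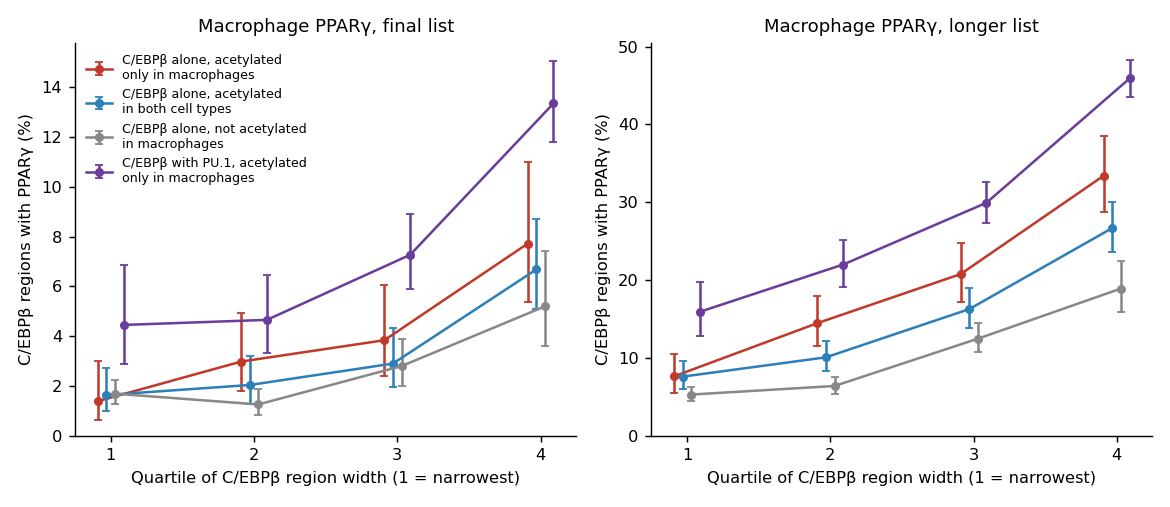
Share of C/EBPβ regions that overlap macrophage PPARγ (y axes, percent) by quartile of C/EBPβ region width (x axes, 1 is the narrowest), for the final and the longer list, with 95% Wilson intervals as error bars. Members (red) rise from 1.39% to 7.71% and from 7.64% to 33.4%, and PU.1-joined regions (purple) lie above them in each quartile.

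The PPARγ share of members was compared over bands of distance to PU.1. The final macrophage list overlapped 5.33% (3.64 to 7.75) of the 469 members within 500 bp of PU.1 and 3.27% (2.02 to 5.24) of the 490 members at 500 to 2000 bp. It overlapped 3.51% (2.23 to 5.48) of the 513 members at 2000 to 10000 bp and 2.24% (0.96 to 5.14) of the 223 members further away. All 4 intervals overlap. In the longer list the shares were 20.5%, 19.2%, 18.7% and 10.8% (7.34 to 15.5), so the members more than 10 kb from PU.1 were lower than those within 500 bp (17.1 to 24.3). The further members were also narrower (median 253 against 275 bp) and in narrower domains (1050 against 1600 bp). The part of these widths was not tested. Regions acetylated in both cell types had 17.8% within 500 bp and 8.70% beyond 10 kb in the longer list. Of the 651 members with PU.1 in the same acetylated region, 3.99% had PPARγ of the final list, against 3.64% of the other 1044, a difference of 0.35 points (-1.46 to 2.40). The longer list gave 20.6% and 16.9%, and the difference of 3.73 points had an interval that just included 0 (-0.06 to 7.64).

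The 64 members with PPARγ of the final list each overlapped their own PPARγ region. They were wider than the rest, with a median of 336 bp (298 to 375) against 267 bp (261 to 273). A wider region meets a 1 bp overlap more readily, and the part of this in the difference was not tested. The gap to PU.1 had a median of 688 bp (423 to 1860) for the 64, against 1559 bp (1404 to 1721) for the rest, and these intervals overlap. The centres of the C/EBPβ and PPARγ regions had a median distance of 41.5 bp (quartiles 19.6 and 105 bp), which the required overlap limits. The median was 58.25 bp for PU.1-joined regions, 80 bp where both cell types were acetylated and 27 bp where macrophages were not. In 6 of the 64, the PPARγ region itself reached a PU.1 region, and in 3 it overlapped adipocyte PPARγ.

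The fold that the authors' peak caller gave these 64 PPARγ regions had a median of 6.18 (5.91 to 6.79) and ran from 5.07 to 23.33. It was 6.20 (5.97 to 6.45) for the 358 PU.1-joined regions, 6.50 (5.94 to 6.96) where both cell types were acetylated and 6.93 (6.34 to 7.59) where macrophages were not. In this list, cut off at a fold of 5, the intervals of members and PU.1-joined regions overlap. In the longer list they do not: the median fold was 4.19 (4.08 to 4.26) at 310 members and 4.42 (4.36 to 4.48) at 1334 PU.1-joined regions.

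The strongest PPARγ region at a member lay on chromosome 9, at a C/EBPβ region from 61135716 to 61136042. Its fold was 23.33 and its peak height 44, and PU.1 was 231 bp away within the same acetylated region of 1400 bp. The second had a fold of 13.04, on chromosome 16 at 10616018 to 10616313, with PU.1 7220 bp away and none in its acetylated region. It also overlapped the combined adipocyte PPARγ list. The third, on chromosome 9 at 36985624 to 36985945, had a fold of 11.44 with PU.1 5015 bp away. The fourth, on chromosome 17 at 34164285 to 34164650, had a fold of 10.61 with PU.1 365 bp away. The strongest sites were thus found both near PU.1 and several kb from it.

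The other 6 of the 10 strongest had folds from 8.29 to 9.27. Of these, 3 were on chromosome 11, including those at 82879297 to 82879654 (PU.1 at 600 bp) and at 105806339 to 105806781 (PU.1 at 11.4 kb, adipocyte acetylation at 89 bp). One was on chromosome 13 at 52615236 to 52615598, with PU.1 at 244 bp. One was on chromosome 9 at 123995205 to 123995505, where 45 bp of the region overlapped acetylation and another C/EBPβ region was 159 bp away. One was on chromosome 3 at 9017660 to 9017921, with adipocyte acetylation 109.7 kb away. The remaining one on chromosome 11, at 81955568 to 81956047, had a fold of 8.5 in macrophages and 6.42 in adipocytes, and lay 43 bp from PU.1 and 68 bp from adipocyte acetylation.

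That site is 1 of the 5 members with PPARγ of the final adipocyte list, 3 of which also had it in the final macrophage list. The region on chromosome 9 at 121964275 to 121964573 had a fold of 8.99 in adipocytes and 5.67 in macrophages. The region on chromosome 6 at 97415086 to 97415628 had 6.02 and 6.54, and its nearest adipocyte acetylated region was 171.3 kb away. The other 2 were on chromosome 19, at 46954717 to 46955044 (adipocyte fold 7.77) and 43850771 to 43850951 (5.14), without macrophage PPARγ in either list. Folds of the 2 lists come from separate libraries and are not compared in size.

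The 46 members with PPARγ of the combined adipocyte list lay nearer to adipocyte acetylation than the rest. The median gap was 2854 bp (1027 to 6287), against 14195 bp (12986 to 15739) for the other 1649. Of these 46, 23 also overlapped macrophage PPARγ of the longer list and 10 that of the final list. Their gap to PU.1 had a median of 2357 bp (1500 to 3425), against 1513 bp (1331 to 1654).

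Members were found on all 19 autosomes. Chromosome 10 held the most, 158 members (9.32%), while it held 6.34% of all autosomal C/EBPβ regions. Of its C/EBPβ-alone regions acetylated in macrophages, 44.5% (39.4 to 49.7) were acetylated only there, and the lowest shares were 26.8% (21.1 to 33.6) on chromosome 19 and 27.0% (22.3 to 32.4) on chromosome 6. The adipocyte H3K9Ace list ran against these shares on chromosomes 10 and 6. It had 3.95% of its autosomal regions on chromosome 10 and 8.64% on chromosome 6, where the macrophage H3K9Ace list had 5.80% and 5.65%. The part of this uneven list in the choice of members was not tested.

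Chromosome 10 also had few members with PPARγ, 1 of 158 in the final macrophage list (0.633%, 0.112 to 3.50), while chromosome 6 had 7 of 80 (8.75%, 4.30 to 17.0). Chromosome 12 had 0 of 71, which allows a share of up to 4.23% by 3 counts, or 5.13% by the Wilson interval used for the other chromosomes. By the longer list, chromosome 12 had 7 members with PPARγ (9.86%, 4.86 to 18.98) and chromosome 10 had 24 members with PPARγ (15.2%, 10.4 to 21.6), and both intervals hold the 18.3% of all members. These chromosomes were singled out after their values were seen. Without chromosome 10 the final-list share was 4.10% of 1537 members.

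**Figure D5:**
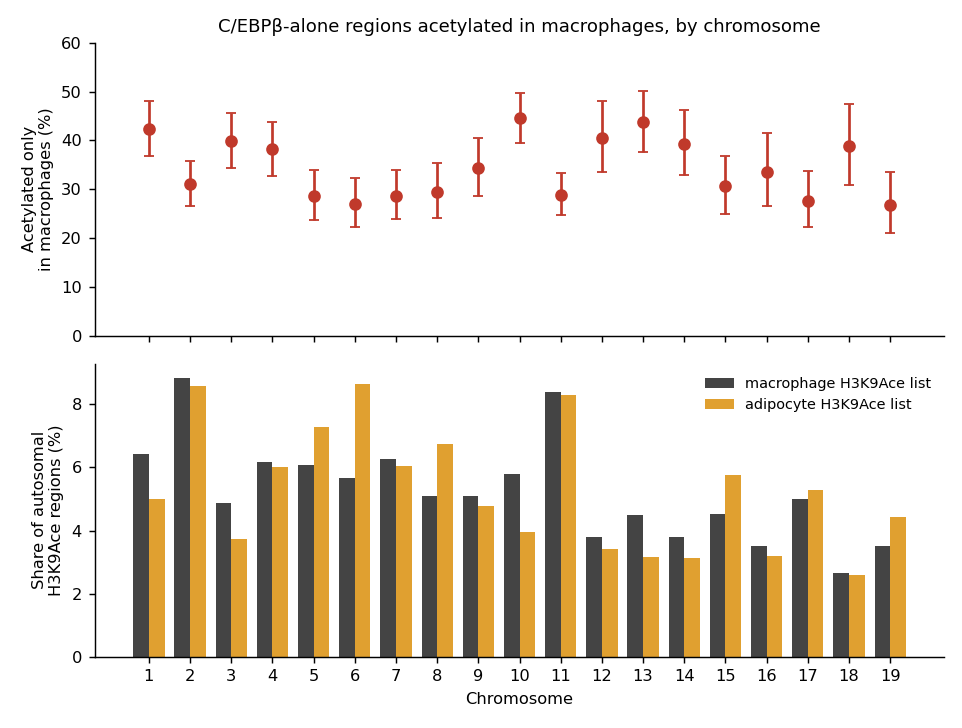
Share of C/EBPβ-alone regions acetylated in macrophages that were acetylated only there (top, percent, with 95% Wilson intervals) and share of each H3K9Ace list on each autosome (bottom, percent). Chromosome 10 is highest at the top with 44.5%, and there the adipocyte list (3.95%) is below the macrophage list (5.80%).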

How the data were processed

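The deposited files were lists of regions called by the authors. Per the labels' protocols, ELAND mapped reads of 36 bp to mm8, kept unique best matches and accepted up to 2 mismatches, and macrophage PPARγ joined 2 runs. For the peak caller, settings and control were not given in the sources used here. Per the file headers, the PPARγ lists carry a fold (a ratio over an unnamed control), a peak height (signal, in whole units, unscaled as far as stated) and a false discovery rate, a deposited percent that was not used further. The other lists give positions, and the combined adipocyte list gives no fold. The adipocyte H3K9Ace list held 20 repeated rows, counted once. Positions were read as half-open, so regions that only touch do not overlap: 3 members touched a PU.1 region and 1 an adipocyte H3K9Ace region.

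Libraries were grouped by title, 1 library a group. Overlaps needed 1 bp, and gaps ran between region edges. A member that overlapped 2 acetylated regions was assigned to the wider overlap. Shares carry Wilson intervals, differences of shares Newcombe intervals and medians order-statistic intervals, all at 95%. No member overlapped a masked interval. Python 3.11.15, numpy 2.4.6, pandas 2.3.3 and scipy 1.17.1 were used, and the overlap, gap and interval code was tested on simulated data. Named regions were the 10 members with the highest macrophage PPARγ fold, the members with final-list adipocyte PPARγ, the 3 nearest to and furthest from PU.1, the 3 widest, the 3 acetylated regions with the most members (ties by chromosome and start), and 3 at each border of the rule. Alternatives changed the overlap rules, the PPARγ lists, the fold, the chromosomes and the measure of distance. The members, classes and rules were chosen with earlier results of these data known.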

Additional observations from a re-analysis of the deposited data

How the results depend on the processing

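Of 79 alternative values over 12 results, 62 stayed within the interval of the reported value (for the number of members, within 1.5 times it), 17 moved outside it and none changed sign where that interval excluded 0. The number of members ran from 1226 to 1717. Requiring no PU.1 within 500 bp drops the members nearest to PU.1 by construction. It moved the median gap to PU.1 to 2773 bp and the share with PU.1 within 10 kb to 81.8%. The share with PU.1 in the acetylated region moved to 19.3%. The gap to other C/EBPβ regions, which this filter does not set directly, moved to 3803 bp. Requiring no adipocyte H3K9Ace within 1000 bp moved the gap to adipocyte H3K9Ace to 20761 bp. Distances between centres gave 1814 bp to PU.1. Counting PPARγ within 500 bp gave a macrophage share of 5.84% and a difference of 3.46 points from regions not acetylated in macrophages. The longer lists gave 18.3% and 2.71%, and differences of -15.4, 3.62 and 10.1 points from PU.1-joined, both-acetylated and not acetylated regions. A fold of at least 7 gave 1.30% and 0.118%, a difference of -2.09 points from PU.1-joined regions and one of 0.30 points (-0.22 to 0.99) from regions not acetylated in macrophages, so that this last difference was no longer detectable. The alternative without chromosome 10 was added after seeing the data and moved no value outside its interval. No paired analysis was possible because each target has 1 library and no groups share replicates. Unknown depth, single libraries and list thresholds limit every share: a region absent from a list is not shown to be free of the factor.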
